A study of Homo sapiens with 2 samples.

Results

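The genes described here are the epidermal differentiation complex and the S100 family, 56 of the 23595 genes named on the array, represented by 94 of its 45033 features. They were taken by the gene names in the array annotation: every name that starts with SPRR, LCE or S100 followed by the number or letter of a family member, and IVL, LOR, FLG, RPTN, CRNN, TGM1, TGM3 and TGM5. LOR is now called LORICRIN and S100A7L1 is now S100A7A. S100PBP matched by its spelling alone: it encodes a protein that binds S100P and belongs to no S100 family, so it is named separately where it counts. The samples were total RNA from TE-1, an established human oesophageal squamous carcinoma cell line. The PAX2 group (1 array) carried the expression vector pcDNA3.1-PAX2 and the control group (1 array) the empty pcDNA3.1. RNA was taken 24 h after transfection in both. The labels give no transfection efficiency or selection, so cells without the plasmid may be in either sample. In bulk RNA, a lower level per cell and fewer cells with the RNA cannot be told apart.

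The epidermal differentiation complex is a cluster on chromosome 1 whose genes are switched on as squamous epithelial cells leave the basal layer. Involucrin (IVL), loricrin (LOR), the small proline-rich proteins (SPRR) and the late cornified envelope proteins (LCE) are cross-linked by transglutaminases (TGM) into the cornified envelope, while filaggrin (FLG), repetin (RPTN) and cornulin (CRNN) are fused-type S100 proteins of the upper layers. The S100 proteins proper are small calcium-binding proteins, and most of their genes lie at the ends of the same cluster. In the oesophagus, CRNN, SPRR3 and IVL mark the differentiated suprabasal layers.

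With 1 array per group no difference here has a replicate check, and none carries a p-value. Values are intensities; a gene's value is the mean of the log2 intensities of its features, and a difference is log2 on the PAX2-labelled array minus log2 on the control array. Median feature intensity was 210 on the PAX2-labelled array and 205 on the control array. As a limit for silent genes, the 95th percentile of 376 olfactory receptor genes was used, which was an intensity of 142 on the PAX2-labelled array and 134 on the control array. A gene counted as measured where its value was not below that array's feature median on one array or both. PAX2 itself had an intensity of 22.1 on the PAX2-labelled array and 22.2 on the control array, where random-sequence probes had 19.3 on the PAX2-labelled array and 20.6 on the control array, so it gives no check of the label. The positions of its probes are not in the files, and probes outside the transferred part would not detect it.

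Only part of a list of squamous markers was detected on these arrays. Of 11 squamous markers, 4 were above the silent range on both arrays and 7 were within it on both. Over all genes of the array these shares were 51.0% and 44.6%. KRT14, a basal keratin, had an intensity of 2471 on the PAX2-labelled array and 2200 on the control array, and KRT5, its partner, 974 on the PAX2-labelled and 593 on the control array. KRT17 had 5620 on the PAX2-labelled and 4507 on the control array, and KRT6B had 176 on the PAX2-labelled and 229 on the control array. TP63, the master regulator of squamous epithelium, and the desmosome genes DSG3, DSC3 and PKP1 were among the 7. Some of the 7 lay just below a limit, such as SOX2 (140 on the PAX2-labelled array) and KRT6A (130 on the control array). None of 5 neutrophil and monocyte markers was above the silent range on either array. Of 8 leukocyte markers only CD68 was, with 288 on the PAX2-labelled array and 418 on the control array. Of 5 simple epithelium markers 2 were above it on both arrays: KRT8 had 23389 on the PAX2-labelled and 19135 on the control array, and KRT18 had 17816 on the PAX2-labelled and 15355 on the control array. EPCAM was above it on the control array alone, and KRT19 and CDH1 were within it on both. Of 5 fibroblast markers 2 were above it on both arrays: COL1A1 had 1012 on the PAX2-labelled and 734 on the control array, and DCN had 555 on the PAX2-labelled and 522 on the control array. None of 4 melanocyte markers was, and of 4 neural and glial markers MBP was. The part of these markers in the results was not tested.

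Promoter sequences from RefSeq (build GRCh38.p14, 250 bases before to 50 bases after the start of the gene) were held for 51 of the 56 genes. Promoters of LCE1B, SPRR2D, SPRR2E, S100B and TGM1 were not among those held. The letters TGANTCA, the site of AP-1 (the FOS and JUN factors known to drive involucrin), stood in 15 of 51 promoters (29.4%), against 7.76% of all 27305 promoters. The letters TATAAA of the TATA box, on either strand, stood in 27 of 51 (52.9%), against 12.0% of all. Both were found in CRNN, FLG, IVL, RPTN, S100A12, SPRR1A, SPRR2A, SPRR2F, SPRR2G and SPRR3. Tandem copies share sequence, so these genes are not independent. GTCACGC, a core recognised by the paired domain of PAX2, stood on either strand in 0 of 51, against 2.61% of all promoters. TGANTCA reads the same on both strands, and it can share bases with GTCACGC.

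The following promoters are examples from the members described below and not an even sample of them. The promoter of S100A13, a gene lower in all 6 of its features, held none of the 3 motifs and is not shown. Whether the motifs bear on the differences was not tested. S100A14 had the largest difference of any measured member, and its promoter held none of the 3 motifs. S100A2 was lower in all 3 of its features and held an AP-1 motif that starts 52 bases before the start of the gene. IVL and SPRR1B were above the silent limit on the control array alone; IVL held an AP-1 motif 123 bases and a TATA box 30 bases upstream, and SPRR1B held AP-1 motifs 141 and 111 bases upstream. Capitals mark the motifs, and each sequence runs 5′ to 3′ on the strand of its gene. They lie at chr1:153616276-153616575 (S100A14, minus strand), chr1:153565795-153566094 (S100A2, minus strand), chr1:152908296-152908595 (IVL, plus strand) and chr1:153030953-153031252 (SPRR1B, plus strand) of GRCh38.p14.
S100A14: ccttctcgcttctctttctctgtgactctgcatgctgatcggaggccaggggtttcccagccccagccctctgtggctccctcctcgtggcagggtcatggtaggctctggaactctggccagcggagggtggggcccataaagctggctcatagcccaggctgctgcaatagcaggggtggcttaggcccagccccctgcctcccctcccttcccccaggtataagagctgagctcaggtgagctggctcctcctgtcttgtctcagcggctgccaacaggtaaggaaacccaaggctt
S100A2: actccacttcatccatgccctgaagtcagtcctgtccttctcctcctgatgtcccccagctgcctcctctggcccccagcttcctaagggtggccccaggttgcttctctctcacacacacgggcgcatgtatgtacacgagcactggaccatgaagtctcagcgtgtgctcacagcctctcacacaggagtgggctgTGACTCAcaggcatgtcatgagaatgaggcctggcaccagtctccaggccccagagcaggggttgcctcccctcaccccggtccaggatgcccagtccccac
IVL: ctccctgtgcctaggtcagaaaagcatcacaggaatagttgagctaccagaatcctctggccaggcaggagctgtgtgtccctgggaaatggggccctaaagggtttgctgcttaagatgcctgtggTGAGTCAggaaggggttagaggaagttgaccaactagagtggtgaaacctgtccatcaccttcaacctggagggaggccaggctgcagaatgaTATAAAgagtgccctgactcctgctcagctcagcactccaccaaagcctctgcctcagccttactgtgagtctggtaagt
SPRR1B: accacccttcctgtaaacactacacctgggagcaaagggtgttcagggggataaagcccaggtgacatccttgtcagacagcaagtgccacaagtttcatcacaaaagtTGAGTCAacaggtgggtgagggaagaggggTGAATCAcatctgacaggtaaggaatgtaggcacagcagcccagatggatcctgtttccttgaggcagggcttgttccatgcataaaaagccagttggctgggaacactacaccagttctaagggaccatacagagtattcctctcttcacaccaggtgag

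Of the 56 genes, 18 (32.1%) were above the silent range on both arrays, 3 on the control array alone and 35 (62.5%) on neither. Over all genes of the array 51.0% were above it on both and 44.6% on neither. Of 20 S100 genes (S100PBP left out) 12 were above the range on both arrays, and of 35 envelope and transglutaminase genes 5 were. Of the 56 genes 15 were measured: 11 S100 genes, S100PBP, LCE1A, LCE1F and TGM1.

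**Figure D1:**
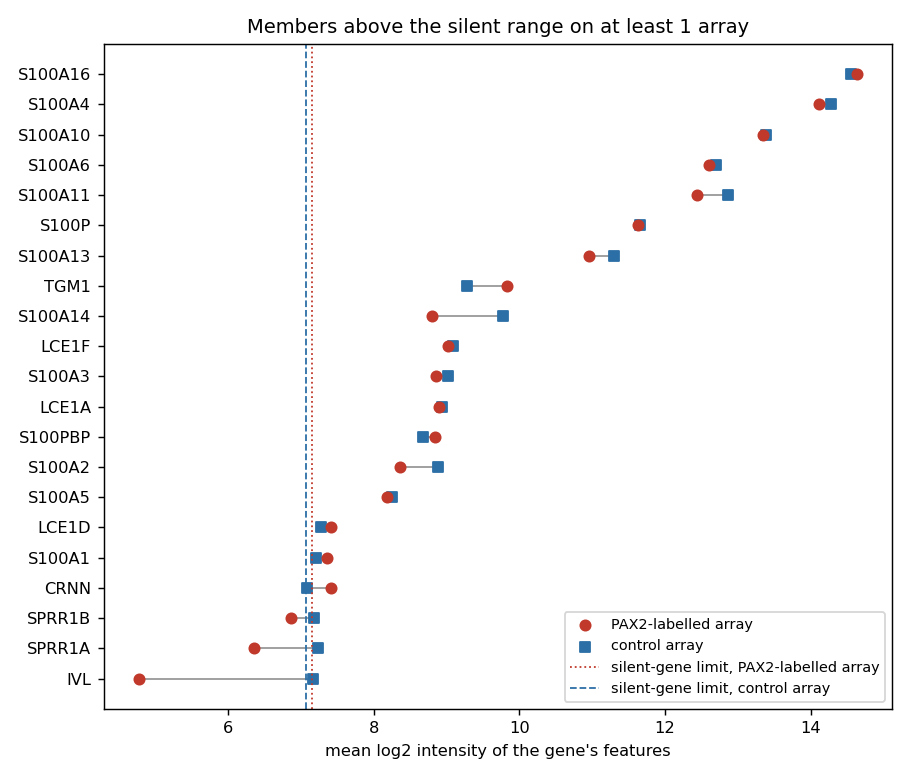
Mean log2 intensity (x axis) of the 21 members above the silent range on at least 1 array, on the PAX2-labelled array (circles) and the control array (squares), with the silent limit of each array as a vertical line. S100A14, S100A2, S100A11 and S100A13 lie to the left on the PAX2-labelled array and TGM1 to the right; IVL, SPRR1A and SPRR1B cross the limit. Positions of different genes depend on their probes and do not rank the genes.

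No measured member differed 2-fold in either direction. Of the 11628 measured genes in all, 131 (1.13%) had a higher value on the PAX2-labelled array by 2-fold or more and 135 (1.16%) a lower one, so a count of 0 among 15 is near this background. The 15 measured members had a median difference of -0.07, against 0.02 over all measured genes. Of the 15, 12 had a lower value on the PAX2-labelled array and 3 a higher one (of all measured genes, 53.4% had a higher value). The 3 were TGM1, S100PBP and S100A16. Without S100PBP the median was -0.08, with 12 of 14 lower.

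S100A14, an S100 protein of epithelial cell membranes (HG18 chromosome 1, 151853354 to 151855414), gave 445 on the PAX2-labelled array and 871 on the control array. It was 1.96-fold lower, a difference of -0.97, with -1.24 and -0.70 in its 2 features. Both features were lower on the PAX2-labelled array, and only one of them by 2-fold. Of all measured genes 1.23% had a difference as low, and in its decile of brightness the SD of the difference was 0.32. It crossed the 2-fold limit after quantile normalization (-1.02), after loess (-1.01) and after centring of the arrays, and its brightest feature alone gave -0.70.

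S100A2, a nuclear S100 protein of basal squamous cells, had an intensity of 327 on the PAX2-labelled array and 472 on the control array. Its difference was -0.53 (1.44-fold lower) with a range of -0.77 to -0.15 over 3 features, and the brightest feature alone gave -0.15. The features pointed the same way but differed in size: the brightest had 605 on the PAX2-labelled array and 672 on the control array, and the dimmest 165 on the PAX2-labelled and 261 on the control array. In its brightness decile the SD was 0.36.

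S100A13, a protein that takes part in the export of growth factors lacking a signal peptide, had 6 features (HG18 chromosome 1, 151857898 to 151873192). Its intensity was 1977 on the PAX2-labelled array and 2518 on the control array, a difference of -0.35 (1.27-fold lower). Of all measured genes 8.40% had a difference as low, and in its brightness decile the SD was 0.26. All 6 features were lower, between -0.43 and -0.23. Their annotated transcripts overlap and the probes behind them are not in the files, so the features may share probes.

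S100A11, a partner of annexin A1, had 1 feature with an intensity of 5544 on the PAX2-labelled array and 7480 on the control array. It was 1.35-fold lower (-0.43), in a brightness decile whose SD was 0.23. No second feature could check it.

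The means of the other bright S100 genes lay closer to 0, and where a gene had several features, these fell on both sides of 0. S100A10, the partner of annexin A2 in a membrane complex, had an intensity of 10463 on the PAX2-labelled array and 10692 on the control array (-0.03). S100A6, calcyclin, had 6247 on the PAX2-labelled and 6650 on the control array (-0.09), and S100A4, a motility-linked S100 protein, had 17673 on the PAX2-labelled and 19955 on the control array (-0.18). S100A16 had 25403 on the PAX2-labelled array and 24184 on the control array (0.07). S100P, a member outside the cluster on chromosome 4, had 3155 on the PAX2-labelled and 3214 on the control array (-0.03). Each of these gene means differed by less than 0.31, the SD of the difference between features of one gene. That SD was taken over 6174 genes with several features past the filter. Single features ran from -0.30 to 0.01 for S100A4 and from -0.23 to 0.17 for S100A6. The range was -0.18 to 0.24 for S100P and -0.12 to 0.12 for S100A10.

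Among the dimmer S100 genes, S100A3, a protein of the hair cuticle, had an intensity of 464 on the PAX2-labelled array and 517 on the control array (-0.16), and S100A5 had 290 on the PAX2-labelled and 305 on the control array (-0.07). S100A1, best known from heart muscle, was above the silent range on both arrays but below the filter, with 163 on the PAX2-labelled and 147 on the control array (0.15). Its 3 features did not agree: the highest difference was 0.71 and the lowest -0.12. All 3 lie inside the interval of S100A13, and how the array separates the overlapping transcripts is not in the files. S100PBP had 456 on the PAX2-labelled array and 409 on the control array (0.16), with features from -0.13 to 0.71.

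Among the 11 measured S100 genes, 10 had the lower value on the PAX2-labelled array, and the median was -0.16. Of all measured genes 53.4% had a higher value, and their median was 0.02. After quantile normalization all 11 were lower (S100A16 at -0.07), and with the brightest feature of each gene 9 of 12. The median of all measured genes was -0.01 after quantile normalization and 0.008 with brightest features. Of 10 members with several features and above the silent range on both arrays, 4 were lower in every feature (S100A13, S100A14, S100A2 and S100A5), 0 were higher in every feature, and 6 were mixed. Over all 6870 such genes of the array 19.0% were lower in every feature and 27.4% were higher in every feature.

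**Figure D2:**
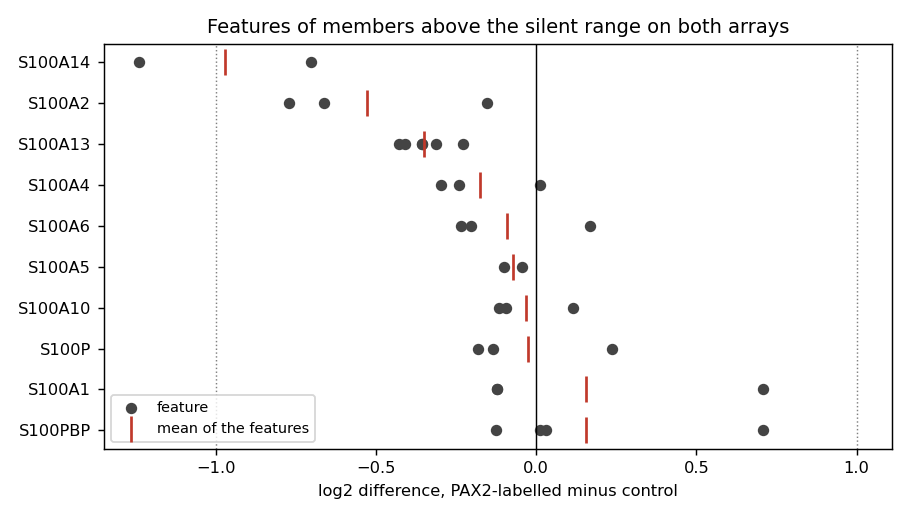
Log2 difference, PAX2-labelled minus control (x axis), of each feature (points) of the 10 members with several features that were above the silent range on both arrays; red bars are the means, and dotted lines mark 2-fold. The features of S100A14, S100A2, S100A13 and S100A5 are all left of 0, and those of the other 6 genes fall on both sides.

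The inflammatory S100 genes were within the silent range on both arrays. S100A8 and S100A9 are the subunits of calprotectin, which squamous and myeloid cells make. S100A8 had an intensity of 16.3 on the PAX2-labelled array and 48.4 on the control array. S100A9 had 48.1 on the PAX2-labelled array and 45.6 on the control array. S100A7 (psoriasin) had 12.4 on the PAX2-labelled array and 21.0 on the control array, S100A7L1 had 11.3 on the PAX2-labelled and 12.0 on the control array, and S100A12 had 15.3 on the PAX2-labelled and 13.3 on the control array. All 10 of these values lie under the silent limits, so no fold is given. S100G, S100Z and S100B, which lie on other chromosomes, were also within the range: S100G had 55.3 on the PAX2-labelled array and 79.3 on the control array, S100Z 52.9 on the PAX2-labelled and 67.3 on the control array, and S100B 14.9 on the PAX2-labelled and 19.7 on the control array.

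TGM1, the membrane-bound transglutaminase that cross-links the cornified envelope, was the transglutaminase of the 3 that passed the filter (HG18 chromosome 14, 23788161 to 23802212). Its 1 feature had an intensity of 913 on the PAX2-labelled array and 619 on the control array, 1.48-fold higher (0.56). Of all measured genes 5.10% had a difference as high, and in its brightness decile the SD was 0.30. TGM3, a hair follicle and epidermal enzyme, had 17.5 on the PAX2-labelled array and 17.8 on the control array, and TGM5, an enzyme of the upper epidermis, had 11.9 on the PAX2-labelled and 49.2 on the control array. Both were within the silent range on both arrays.

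Most envelope precursors were at or below the silent limit. IVL had an intensity of 27.4 on the PAX2-labelled array and 143 on the control array, where the limit is 134. Since the first value is inside the silent range, IVL has only a bound against that limit, 1.01-fold lower. SPRR1A had 82.1 on the PAX2-labelled array and 151 on the control array (bound 1.06-fold lower). SPRR1B had 116 on the PAX2-labelled and 144 on the control array (bound 1.01-fold lower), from 2 features of opposite sign. The limit is a 95th percentile, so some silent genes lie above it. In log2 the bounds are -0.01 (IVL), -0.09 (SPRR1A) and -0.02 (SPRR1B). They are small against 0.82, the SD of the difference among the olfactory receptor genes, so none of these genes is called lower. LOR had 36.8 on the PAX2-labelled array and 28.3 on the control array. FLG had 38.2 on the PAX2-labelled and 16.3 on the control array, and RPTN 22.5 on the PAX2-labelled and 28.8 on the control array, all within the silent range. CRNN had 170 on the PAX2-labelled array and 135 on the control array, just above the limits, with a difference of 0.33 in 1 feature.

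Each SPRR1 gene had a single feature above a silent limit. That of SPRR1B had an intensity of 136 on the PAX2-labelled array, within the silent range, and 295 on the control array. The other SPRR1B feature went the opposite way, with 99.1 on the PAX2-labelled array and 70.4 on the control array, both within the silent range. The SPRR1A feature had 305 on the PAX2-labelled array and 475 on the control array (-0.64), above both limits. SPRR3, an oesophageal differentiation marker, had 28.6 on the PAX2-labelled array and 90.6 on the control array, and SPRR4 had 37.2 on the PAX2-labelled and 44.2 on the control array; both lay within the silent range on both arrays. The 6 SPRR2 genes were all within it by their mean, from 15.0 to 89.8 on the PAX2-labelled array and from 18.1 to 70.2 on the control array. One of the SPRR2A features alone was above the limit on the PAX2-labelled array, with 146 there and 126 on the control array. The annotated interval of that feature also covers SPRR2B, SPRR2E and SPRR2F, and near-identical SPRR2 copies may share signal.

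By the mean of their features, 14 of 17 late cornified envelope genes were within the silent range on both arrays. LCE1F had an intensity of 519 on the PAX2-labelled array and 542 on the control array (-0.06), LCE1A had 475 on the PAX2-labelled and 490 on the control array (-0.05), and LCE1D had 171 on the PAX2-labelled and 155 on the control array (0.14). These 3 were above it on both arrays and differed by less than the SD between features of one gene. The other 14 ranged from 10.3 to 99.2 on the PAX2-labelled array and from 12.3 to 108 on the control array. LCE3D is among them by its mean alone: 1 of its 3 features was above the limits on both arrays, with 295 on the PAX2-labelled array and 387 on the control array, and the others were within the silent range.

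Along chromosome 1 the genes above the limit lay in blocks. The 48 members there (S100PBP left out) span 1651 kb of HG18, from 150222016 to 151873192. The first 2 genes, S100A10 and S100A11, were above the range on both arrays. The next 32, from RPTN to LOR, include only CRNN, LCE1F, LCE1D and LCE1A above it on both. The following 5, from S100A9 to S100A7, were all within it, and the last 9, from S100A6 to S100A1, were all above it on both arrays. Probes differ between genes, so this pattern is of detection and not of relative amounts. Of 13 further genes of the region that were on the array (among them FLG2, HRNR and PGLYRP3), THEM4 was above the range on both arrays and TCHH on the PAX2-labelled array alone.

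**Figure D3:**
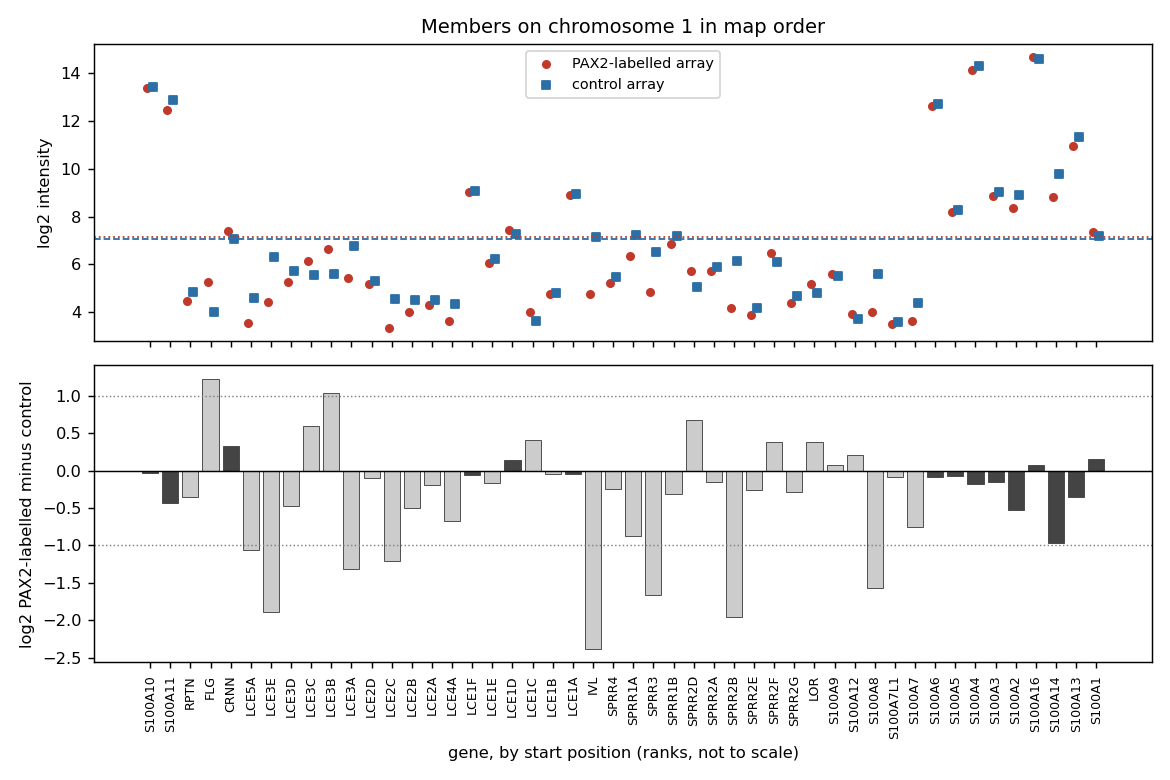
Members on chromosome 1 in map order (x axis, ranks), with log2 intensity on each array and the silent limits as lines (top) and log2 difference (bottom; dark bars are genes above the silent range on both arrays, pale bars all others, dotted lines 2-fold). Genes above the limits stand mainly at both ends, and the bars past 2-fold are all pale.

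With the deposited values averaged over the features of a gene, no member past the filter had a difference past 2-fold, and 11 below it did. With no filter, 2 of the 56 genes were higher by 2-fold or more and 9 were lower, against 3.2% and 4.07% of all genes; the values behind these counts lie within the silent range on at least 1 array. They were FLG and LCE3B (higher), and IVL, LCE2C, LCE3A, LCE3E, LCE5A, S100A8, SPRR2B, SPRR3 and TGM5 (lower). The SD of the difference among the olfactory receptor genes was 0.82, against 0.31 between features of one gene past the filter. The median of all 56 genes was -0.17, against 0.01 over all genes, and 41 of the 56 were lower. Of all genes 51.0% were higher. Tandem copies among the 56 share sequence, so these genes are not independent. Among the 35 genes within the silent range on both arrays 26 were lower and 25.7% higher, where 48.2% of all genes in that range were higher.

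Set against genes of similar brightness, 11 of the 56 lay below the central 90% of all genes and 2 above it, where 5.0% of all genes lie on each side. Of the 15 measured members S100A14, S100A2 and S100A11 lay below and TGM1 above. The other 8 below were IVL, LCE2C, LCE3A, LCE3E, S100A8, SPRR2B, SPRR3 and TGM5, and the other one above was FLG. All of these had values within the silent range on at least 1 array, so their differences are not read as changes.

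**Figure D4:**
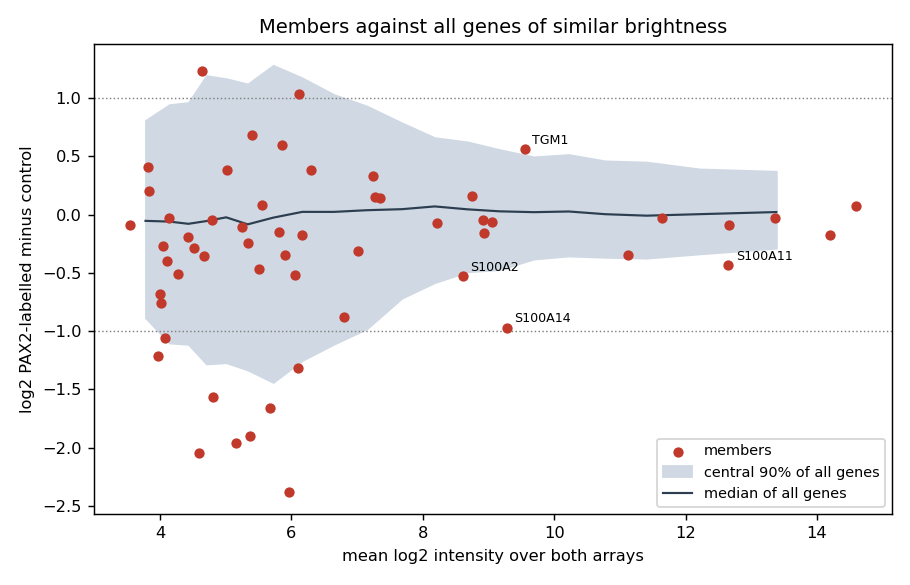
Log2 difference, PAX2-labelled minus control (y axis), of each of the 56 members (points) against mean log2 intensity over both arrays (x axis); the band joins the central 90% of all genes in 20 bins of brightness, drawn at the bin centres, the line their median, and dotted lines mark 2-fold. Among the measured members S100A14, S100A2 and S100A11 lie below the band and TGM1 above it.

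Lists of genes that act with these proteins are given by their counts. As background, 53.4% of all measured genes had a higher value, and their median was 0.02. Whether the lists differ from this background was not tested. Of 40 cornified envelope and barrier genes outside the cluster 16 were measured, 9 higher and 7 lower, with a median of 0.03 and none past 2-fold. KRT1, a suprabasal keratin, had an intensity of 625 on the PAX2-labelled array and 367 on the control array (0.77, with 0.22 and 1.32 in its features), and SPINK5, a protease inhibitor of the skin barrier, 1573 on the PAX2-labelled and 996 on the control array (0.66). KRT10, the partner of KRT1, had 299 on the PAX2-labelled and 361 on the control array (-0.27), and KRT13, an oesophageal suprabasal keratin, 484 on the PAX2-labelled and 471 on the control array (0.04). ECM1 had 4832 on the PAX2-labelled and 6672 on the control array (-0.47), and the envelope plakins PPL (difference 0.01) and EVPL (0.17) were both measured. Of 34 regulators of squamous differentiation 20 were measured, 14 higher and 6 lower, with a median of 0.10. Of the 20, 1 was 2-fold higher and 0 were 2-fold lower, against 1.13% and 1.16% of all measured genes. The 1 was OVOL1, a repressor that helps epidermal cells leave the cell cycle, with 660 on the PAX2-labelled array and 325 on the control array (1.02 in 1 feature). JUNB had 3736 on the PAX2-labelled and 2535 on the control array (0.56), and KLF4 2611 on the PAX2-labelled and 2403 on the control array (0.12). Among the lower ones, NOTCH3 had 1772 on the PAX2-labelled and 2302 on the control array (-0.38), and CEBPB 3161 on the PAX2-labelled and 3940 on the control array (-0.32). Of 18 binding partners and receptors of S100 proteins 16 were measured, 10 higher and 6 lower, with a median of 0.08 and none past 2-fold. ANXA1, a partner of S100A11, had an intensity of 3688 on the PAX2-labelled array and 4935 on the control array (-0.42). ANXA2, the partner of S100A10, had 13767 on the PAX2-labelled and 14809 on the control array (-0.11).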

How the data were processed

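Total RNA was measured on 2 single-colour NimbleGen arrays, 1 per group. The deposited values are intensities on a linear scale, made by the authors with RMA, per the submitters' processing notes. Its background and between-array steps are not stated. Per the file headers, each feature has a deposited count of probes (3 for 45031 of 45033 features). Gene names and HG18 coordinates are those of the array design. A deposited standard error of unstated meaning was not used.

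Features were named by gene identifier; all 56 member genes matched the reference table (GRCh38.p14, used for names). Each gene took the mean log2 intensity over its features, with no pseudocount and no further normalization. With 1 array per group nothing was tested, and precision is limited by there being 2 arrays. The silent limit, the filter (median of all features), the 2-fold threshold and the alternatives are in the text; the computation was tested on simulated data. Members that passed the silent limit, and IVL, LOR, FLG, RPTN, CRNN, TGM1, TGM3 and TGM5, are named with both values; the others are given by family, without the brightest and dimmest that the rule also asked for, since they lie within the silent range. Genes named in the lists of partners, and some dim members, were chosen after their values were seen. Leaving out S100PBP was chosen after seeing the data. The members and lists were chosen with earlier results of these data known. Python 3.11.15, numpy 2.4.6, pandas 2.3.3 and statsmodels 0.14.6 (loess fraction 0.3) were used.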

Additional observations from a re-analysis of the deposited data

How the results depend on the processing

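No paired analysis was possible because there is a single array for either vector. The count of 0 measured members at least 2-fold lower became 1 after centring on array medians, quantile normalization or loess (S100A14 in each), where 1.23%, 1.24% and 1.28% of all measured genes were as low. It was 1 when the brightest feature stood for its gene (SPRR1B, against 2.03% of all genes) and 1 with a 1.5-fold threshold (S100A14, against 3.22%). It was also 1 with the filter at the silent range (against 1.75%), which is IVL, whose value on the PAX2-labelled array is in that range and gives only a bound. With no filter the counts were 2 higher and 9 lower. The median of the measured members was -0.15 for brightest features and -0.17 with no filter; in the other settings run it lay between -0.12 and -0.06. The median of all members lay between -0.21 and -0.07. Centring, quantile normalization and loess turned the median of all measured genes to -0.01, and 5 of 10 members were then lower in every feature, against 23.8%, 23.4% and 23.3% of all such genes. Of 156 recomputed differences of 26 named members, 4 moved by more than an SD of 0.31 for members past the filter or 0.82 for the others: FLG (0.35), IVL (-1.18) and TGM5 (-0.58) with an offset of 64 before the log, and S100A2 (-0.15) with the brightest feature. That tolerance is wide for dim members: SPRR1B (-1.11) and S100A1 (0.71) with the brightest feature and SPRR1A (-0.42) with the offset lie inside it. Many of the 156 could not move. The series-level copy of the values was identical, and centring shifted every gene by the same small amount. A gene with a single feature is also unchanged when its brightest feature is taken. The count of 4 is therefore no measure of stability. Of the 156, 6 turned sign, 0 of them from a 2-fold value: S100A4 (0.01), RPTN (0.12) and TGM3 (0.40) with the brightest feature, S100A16 (-0.07) and TGM3 (0.02) after quantile normalization, and TGM3 after loess. The cause was not tested. Low signal over background limits the 35 members within the silent range.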
